A study of Mus musculus with 37 samples.

Results

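The question here is how the first podocyte response to diabetes differed between a type 2 and a type 1 mouse model. It was read from 19 of the 37 libraries of the series, chosen by their group labels alone. Each library holds RNA pulled down with podocyte ribosomes, a method called translating ribosome affinity purification (TRAP). The labels do not give the promoter that drives the ribosome tag. All mice were C57BL/6 and 3 months old.

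Type 2 model controls, 3m-CT, were non-diabetic eNOS-/- mice, which lack endothelial nitric oxide synthase (5 libraries). Their diabetic counterparts, 3m-D2, were eNOS-/- db/db mice (5 libraries), in which db/db is a loss-of-function mutation of the leptin receptor. The loss of eNOS is therefore shared by both groups of the type 2 model. Type 1 model controls, 3w-CT, had no streptozotocin (4 libraries), and 3w-D1 mice were 3 weeks after streptozotocin (STZ; 5 libraries), a toxin of the insulin-producing beta cells. The labels give no genotype for the type 1 model. In 3w-D1, diabetes and a direct action of STZ cannot be told apart, and a difference between the models cannot be told apart from eNOS loss, obesity or the duration of diabetes. Nothing in the labels ties each library to its own animal. The p-values therefore describe only the scatter of these libraries, which may be technical.

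Podocytes are the epithelial cells that cover the capillaries of the glomerulus, and their foot processes and slit diaphragm form the outer layer of the kidney filter. Type 1 diabetes lacks insulin, and diabetes in db/db mice comes with insulin resistance, obesity and high insulin. Interferon signalling is known to switch on the guanylate-binding proteins (Gbp), the immunity-related GTPases (Irg) and the class I antigen presentation genes. Insulin is known to repress Pck1 and G6pc, the enzymes that commit and complete gluconeogenesis, which in the kidney belongs to the proximal tubule.

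For each gene the type 2 effect is the log2 change 3m-D2 minus 3m-CT, and the type 1 effect is 3w-D1 minus 3w-CT. The difference of effects is the first minus the second: a positive value means more raised, or less lowered, in the type 2 model. Levels are read counts scaled to library size with TMM factors (CPM). Called genes are those with an adjusted p under 0.05 in edgeR's quasi-likelihood test, which was fitted on all 16397 tested genes of 32108 in the table.

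Total counts per library ran from 10673102 to 37786025, and 14320 to 21050 genes had a count. The range was 15558 to 16362 genes in 3w-CT against 19140 to 20606 in 3m-CT. Podocyte markers were abundant in every group: Nphs1, the slit diaphragm protein nephrin, was 112 times higher in 3m-CT TRAP than in the single whole-kidney library. Summed CPM of the 38 genes of the podocyte list was 40400 to 60430 in 3m-CT, 26160 to 47920 in 3m-D2, 22350 to 45270 in 3w-CT and 21020 to 41800 in 3w-D1. Within 3w-D1 it was 21500, 24740 and 21020 in libraries 1, 2 and 3, and 41800 and 36750 in libraries 4 and 5. Within 3m-D2 libraries 4 and 5 were lowest, at 26160 and 29350. Results with these subsets left out are given for the numbers of calls and for part of the genes and lists. Libraries 1, 2 and 3 of 3w-D1 resembled each other. Their endothelial marker sums were 894, 929 and 916 CPM, against 410.5 and 428 in libraries 4 and 5. Mesangial and smooth muscle sums were 720, 766 and 731 against 344.5 and 382, and collecting duct sums 805, 740 and 740 against 455 and 385. Proximal tubule sums overlapped (13020, 7933 and 9538 against 7514 and 10570). The part of this cell content in the calls was not tested. Nos3, the eNOS gene, had 2.79, 2.02, 3.62, 5.25 and 3.89 CPM in 3m-CT and 4.12, 2.697, 2.601, 7.06 and 5.46 in 3m-D2, although both groups are labelled eNOS-/-. Reads outside a deleted part check nothing. Lepr, the leptin receptor gene, had 1.34, 2.25, 2.68, 1.56 and 3.45 CPM in 3m-CT and 1.997, 1.504, 1.64, 2.45 and 1.11 in 3m-D2, which does not check the mutation.

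The response of 173 genes differed between the models, 1.06% of those tested. It was higher in the type 2 model for 79 (0.482%) and lower for 94 (0.573%). Most of them moved in the type 1 model: the type 1 effect alone was called for 122, the type 2 effect alone for 34, both for 13 and neither for 4. The type 1 effect called 1557 genes in all (9.5%; 5.68% higher and 3.82% lower), and the type 2 effect 521 (3.18%; 1.49% higher and 1.68% lower). Without 3w-D1 libraries 1, 2 and 3 the type 1 effect called 289 genes, and without libraries 4 and 5 it called 2795. Without 3m-D2 libraries 4 and 5 the type 2 effect called 265. List counts of the single effects were not recounted in these settings. An unadjusted p under 0.05 for the difference was found for 2261 genes (13.8%). For 167 of the 173 the 5 deviations of the 3m-D2 libraries from their control mean did not overlap the 5 deviations of the 3w-D1 libraries, a separation seen for 10.8% of all tested genes. The 2 sets of controls also differed from each other in 675 genes (4.12%), so that difference is given beside the genes described where it was called. Of the 173 genes, 44 (25.4%) had a called control difference, 42 of them with the sign opposite to their difference of effects. The same control libraries enter both comparisons, so these 2 results are not independent.

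The number of calls depended on the libraries and the tool. Without 3w-D1 libraries 4 and 5 it was 844, and without libraries 1, 2 and 3 it was 24, of which 19 were among the 173. Leaving out 1 library gave 91 calls (3w-D1 library 3) to 357 (3w-D1 library 4). The count fell by more than 1.5 times without 3m-CT library 2, 3 or 5, 3m-D2 library 1 or 2 or 3w-D1 library 1, 2 or 3 (91 to 115), and more than 1.5 times as many were made without 3w-CT library 2 or 3w-D1 library 4 or 5 (309 to 357). DESeq2 gave 588 of 18004 tested genes, with all 173 among them. Limma on FPKM gave 102 of 15302, with 92 of the 173 among them. The direction was kept by every one of the 173 genes in every setting that tested it. Of 41 of the called genes described, for which single values were followed across settings, 10 were still called without 3w-D1 libraries 1, 2 and 3: Cyp27b1, Col27a1, Adamtsl5, Angptl7, Igtp, Irgm2, H2-Q6, H2-K1, Slc6a6 and Thbd. The other 31 kept their sign with adjusted p from 0.0542 to 0.333.

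**Figure D1:**
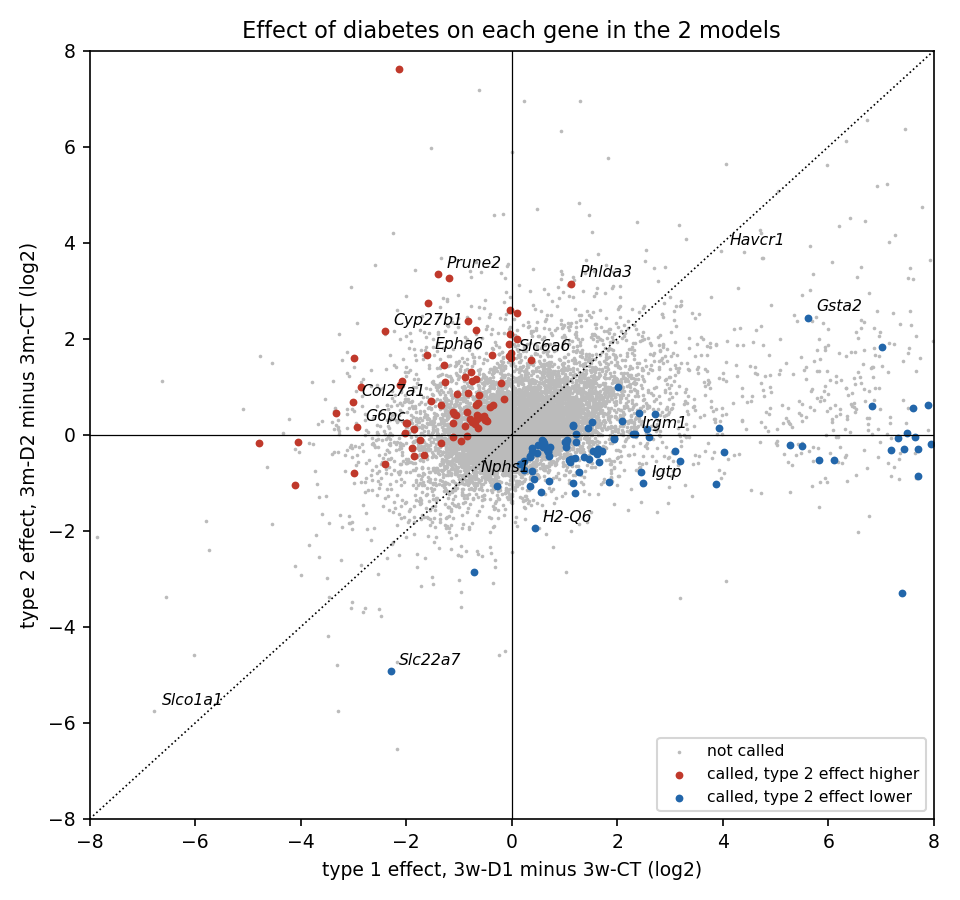
Type 1 effect (horizontal axis, log2) against type 2 effect (vertical axis, log2) for each tested gene, with genes called for the difference in red (79, higher in type 2) and blue (94, lower in type 2) and others in grey; the dotted line marks equal effects. Red points lie above the line and blue points below it, most of the blue ones at a positive type 1 effect (called for 81 of the 94); 21 genes, 7 of them called, fall outside the axes.

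Most interferon-induced and antigen presentation genes rose in the type 1 model, and none of them was called higher in the type 2 model. Of 33 interferon-induced genes, 9 were called lower for the difference and 0 higher, at a background of 0.573%, and all 33 had a negative difference. Their median change was 1.51 in type 1 and 0.144 in type 2, with 21 called higher in type 1 (background 5.68%) and 0 in type 2 (background 1.49%). Of 16 antigen presentation genes, 9 were called lower for the difference and all 16 were negative, with 13 called higher in type 1 and medians of 1.31 in type 1 and -0.392 in type 2. Over all tested genes the medians were 0.0239 and 0.0382. The called interferon-induced genes included Gbp7, Bst2, Psmb8, Gbp3, Rtp4, Ifit2, Gbp2 and Rsad2. Antigen presentation contributed H2-Q4, H2-K1, B2m, Tap1, H2-D1, H2-Q6, Tap2, Nlrc5 and H2-T23. Without 3w-D1 libraries 1, 2 and 3 the counts were 0 of the 33 and 2 of the 16, against 24 of 17620 over all genes. Without 3w-D1 libraries 4 and 5 the first count was 14, against 844 of 16929 over all genes. With 1 library left out, the interferon-induced count was 3 to 5 without 3m-CT library 2 or 3, 3m-D2 library 1 or 2 or 3w-D1 library 1, 2 or 3, and 15 without 3m-D2 library 4.

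The genomic control sequences of this group are shown because so many of its members moved together. The letters below are RefSeq promoter windows (build GRCm38.p6, 250 bases before to 50 after the gene start, 5′ to 3′ on the gene's strand). The RefSeq start of Irgm2 lies well inside the longer gene that the count table gives, and that of Irgm1 a short way inside. Capitals mark the interferon-stimulated response element, through which interferon acts on its target genes, searched as GAAANNGAAA on both strands. Irgm1 (chr11:48871371-48871670, minus strand), Igtp (chr11:58199306-58199605, plus strand), Irgm2 (chr11:58214727-58215026, plus strand) and B2m (chr2:122147437-122147736, plus strand) are given.
Irgm1: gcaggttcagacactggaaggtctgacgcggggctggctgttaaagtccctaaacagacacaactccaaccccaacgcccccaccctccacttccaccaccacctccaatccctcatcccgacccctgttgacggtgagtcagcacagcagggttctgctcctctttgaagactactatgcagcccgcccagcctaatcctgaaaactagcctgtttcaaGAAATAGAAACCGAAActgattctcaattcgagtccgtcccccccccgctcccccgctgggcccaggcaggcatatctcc
Igtp: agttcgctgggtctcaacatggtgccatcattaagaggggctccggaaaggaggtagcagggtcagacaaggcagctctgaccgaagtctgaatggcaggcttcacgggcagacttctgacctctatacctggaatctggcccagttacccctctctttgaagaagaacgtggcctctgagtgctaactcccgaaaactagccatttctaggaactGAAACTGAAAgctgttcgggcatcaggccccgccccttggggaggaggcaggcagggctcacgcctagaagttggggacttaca
Irgm2: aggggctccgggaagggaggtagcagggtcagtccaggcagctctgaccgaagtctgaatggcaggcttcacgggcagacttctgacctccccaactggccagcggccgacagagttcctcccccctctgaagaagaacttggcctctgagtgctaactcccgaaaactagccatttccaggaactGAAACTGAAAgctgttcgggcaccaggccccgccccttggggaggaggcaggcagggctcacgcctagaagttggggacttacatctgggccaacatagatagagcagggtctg
B2m: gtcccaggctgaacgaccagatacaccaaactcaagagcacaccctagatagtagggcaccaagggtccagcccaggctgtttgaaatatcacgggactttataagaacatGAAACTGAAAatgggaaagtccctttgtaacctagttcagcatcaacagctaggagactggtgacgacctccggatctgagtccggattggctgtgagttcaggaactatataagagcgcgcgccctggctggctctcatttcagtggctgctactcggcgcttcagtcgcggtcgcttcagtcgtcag

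The 16 capitals of Irgm1 hold 2 overlapping matches, and the windows of Igtp and Irgm2, neighbours on chromosome 11, carry the same capital letters, as does B2m. The motif occurred in 3.44% of all 32851 windows and in 3.8% of the 11285 tested genes with a window. It occurred in 14 of the 67 genes with a window that were called lower for the difference (20.9%), and in 0 of the 52 called higher. Of these 67 genes, 19 belonged to the interferon, antigen presentation and GTPase lists, and 12 of the 14 genes with the motif were among those 19. The matches in called genes therefore lay mostly in genes listed as interferon targets, and not in the called genes at large. No match was found in the windows of H2-K1, H2-D1, H2-Q4, H2-Q6, Tap1, Psmb8 and Ifit2, which says only that these letters are not in those bases. The gamma-activated site, searched as TTCNNNGAA, occurred in 8 of these 19 genes, against 8.3% of all windows. A match is a description and not a site of binding.

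Igtp (also Irgm3; chr11:58199556-58207591) encodes an immunity-related GTPase that acts on the vacuoles of intracellular parasites. It had 8.502, 12.9, 13.8 and 18.8 CPM in 3w-CT and 107, 89.7, 70.3, 46.01 and 67.3 CPM in 3w-D1. Its level was 18.9, 43.4, 41.04, 16.4 and 24.5 CPM in 3m-CT and 9.43, 12.3, 13.5, 19.2 and 17.6 CPM in 3m-D2. Every STZ library lay above every control, while 3 db/db libraries lay below their own controls and 2 within their range. The type 1 effect was log2 2.49, SE 0.323, adjusted p = 5.96e-05, and the type 2 effect was not called (adjusted p = 0.057). The difference of effects was log2 -3.49, SE 0.426, adjusted p = 0.000363. The 3m-CT controls started higher than 3w-CT (1.09, adjusted p = 0.0458).

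Irgm2 (chr11:58199618-58222779), another GTPase of the family, moved in opposite directions. It had 43.3, 28.2, 47.6 and 92.4 CPM in 3w-CT and 196, 199.7, 145, 192 and 212 CPM in 3w-D1. Type 2 model libraries held 83.9, 178, 163, 72.3 and 102 CPM in 3m-CT and 41.3, 66.4, 68.7, 75.2 and 49.5 CPM in 3m-D2. The STZ libraries did not overlap their controls, and 1 of the 5 db/db libraries lay within the control range. It rose in type 1 (log2 1.84, SE 0.302, adjusted p = 0.000663) and fell in type 2 (log2 -0.99, SE 0.273, adjusted p = 0.0483), with a difference of log2 -2.83, SE 0.406, adjusted p = 0.00177. The fall in type 2 was lost in 15 of the 19 fits with 1 library left out (all but 3m-CT library 1 or 4 and 3w-CT library 2 or 4), at adjusted p from 0.0528 to 0.165. Its controls also started higher in 3m-CT (1.18, adjusted p = 0.0271). In the table the Igtp and Irgm2 genes overlap on the same strand, so reads could be shared between them.

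Irgm1, which regulates autophagy and the other Irg proteins, had 33.7, 20.7, 42.8 and 32.1 CPM in 3w-CT and 215, 208, 164, 75.2 and 134 CPM in 3w-D1. In 3m-CT it had 28.6, 42.7, 63.1, 31.4 and 38.9 CPM and in 3m-D2 26.96, 33.7, 34.1, 71.6 and 41.1 CPM, overlapping groups. The difference was log2 -2.28, SE 0.426, adjusted p = 0.0112, and the gene was named after its values were seen. Of 19 genes of the Gbp and Irg families, a list drawn up after these values were seen, 12 were called lower for the difference (background 0.573%) and 0 higher (3 without 3w-D1 libraries 1, 2 and 3). Their summed level was 1305, 1329, 1052, 667 and 823 CPM in 3w-D1 libraries 1 to 5 and 140.2 to 250.5 CPM in 3w-CT. It was 200.5 to 416 CPM in 3m-CT and 129.6 to 379 CPM in 3m-D2. All 19 had a negative difference, but some Gbp genes are close copies and some overlap, so reads may be split between those. Tgtp2, a further Irg gene, had a difference of log2 -4.897, SE 0.836, adjusted p = 0.00564, and Gbp7 one of log2 -1.98, SE 0.395, adjusted p = 0.0166. Tgtp2 too started higher in 3m-CT than in 3w-CT (2.498, adjusted p = 0.0279).

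Class I molecules show peptides from inside the cell to T cells, and B2m (chr2:122147686-122153083) encodes their shared light chain. B2m had 156, 116, 116 and 187 CPM in 3w-CT and 566, 628, 610.2, 450.4 and 520.2 CPM in 3w-D1. Its level was 226, 331, 239.5, 126 and 183 CPM in 3m-CT and 156, 152, 291, 299.8 and 145 CPM in 3m-D2. All 5 STZ libraries lay above all others, and the db/db libraries lay within the range of their controls. The type 1 effect was log2 1.95, SE 0.268, adjusted p = 0.000107, and the difference log2 -2.03, SE 0.354, adjusted p = 0.00579. The heavy chain gene H2-K1 (chr17:33996017-34000333) had 239, 181, 161 and 161 CPM in 3w-CT and 377, 515, 512, 515 and 463 CPM in 3w-D1. Its levels were 163, 221, 229, 123 and 171 CPM in 3m-CT and 89.8, 119, 105, 218 and 122 CPM in 3m-D2. All STZ libraries lay above their controls, 4 of 5 db/db libraries lay below theirs, and the difference was log2 -1.83, SE 0.305, adjusted p = 0.00516. Tap1, the peptide transporter, had a difference of log2 -2.22, SE 0.3903, adjusted p = 0.00617, H2-D1 one of log2 -1.61, SE 0.294, adjusted p = 0.00919 and H2-Q4 one of log2 -2.05, SE 0.326, adjusted p = 0.00489.

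H2-Q6 (chr17:35424850-35430055), a class Ib gene, followed another course. It was 51.5 times higher in 3m-CT TRAP than in whole kidney. It had 956, 1213, 1146, 567 and 913 CPM in 3m-CT and 235, 354, 349, 193 and 110 CPM in 3m-D2, against 321, 205, 379.6 and 406 CPM in 3w-CT and 243, 286, 248, 665 and 772 CPM in 3w-D1. The db/db libraries all lay below their controls, while 3 STZ libraries lay within their control range and 2 above it. It fell in type 2 (log2 -1.95, SE 0.353, adjusted p = 0.00244), was not called in type 1 (log2 0.43, SE 0.364, adjusted p = 0.509), and differed by log2 -2.38, SE 0.508, adjusted p = 0.023. The 3m-CT controls started higher (1.55, adjusted p = 0.023). H2-Q5, chosen after its values were seen, fell with it in type 2, at a log2 change of -1.19 (SE 0.280, adjusted p = 0.0184), and its 3m-CT controls also started higher (1.25, adjusted p = 0.0226). Class I genes are near-identical copies, and no source used here says how reads were divided among them.

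Immune cells were measured beside this group. Summed CPM of 16 macrophage markers was 59.3 to 137 in 3w-CT and 155 to 415 in 3w-D1, and 67.4 to 93.6 in 3m-CT and 51.8 to 405 in 3m-D2. For 15 lymphocyte markers it was 4.43 to 9.44 and 11.98 to 18.01 in the type 1 model, and 5.17 to 11.3 and 5.08 to 178 in the type 2 model. No macrophage or lymphocyte marker was at 0 in all libraries. In 3w-D1 libraries 4 and 5 the macrophage sums were the lowest of that group, 156 and 155, and the sums of the 33 interferon-induced genes were 1042 and 983. In 3m-D2 library 4, with the highest macrophage sum, the interferon sum was 783. Other 3m-D2 libraries had 357 to 450.4, and 3w-CT had 339 to 528. The part of immune cells in the rise was not tested, and fewer cells of a type and less RNA per cell cannot be told apart in these libraries.

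**Figure D2:**
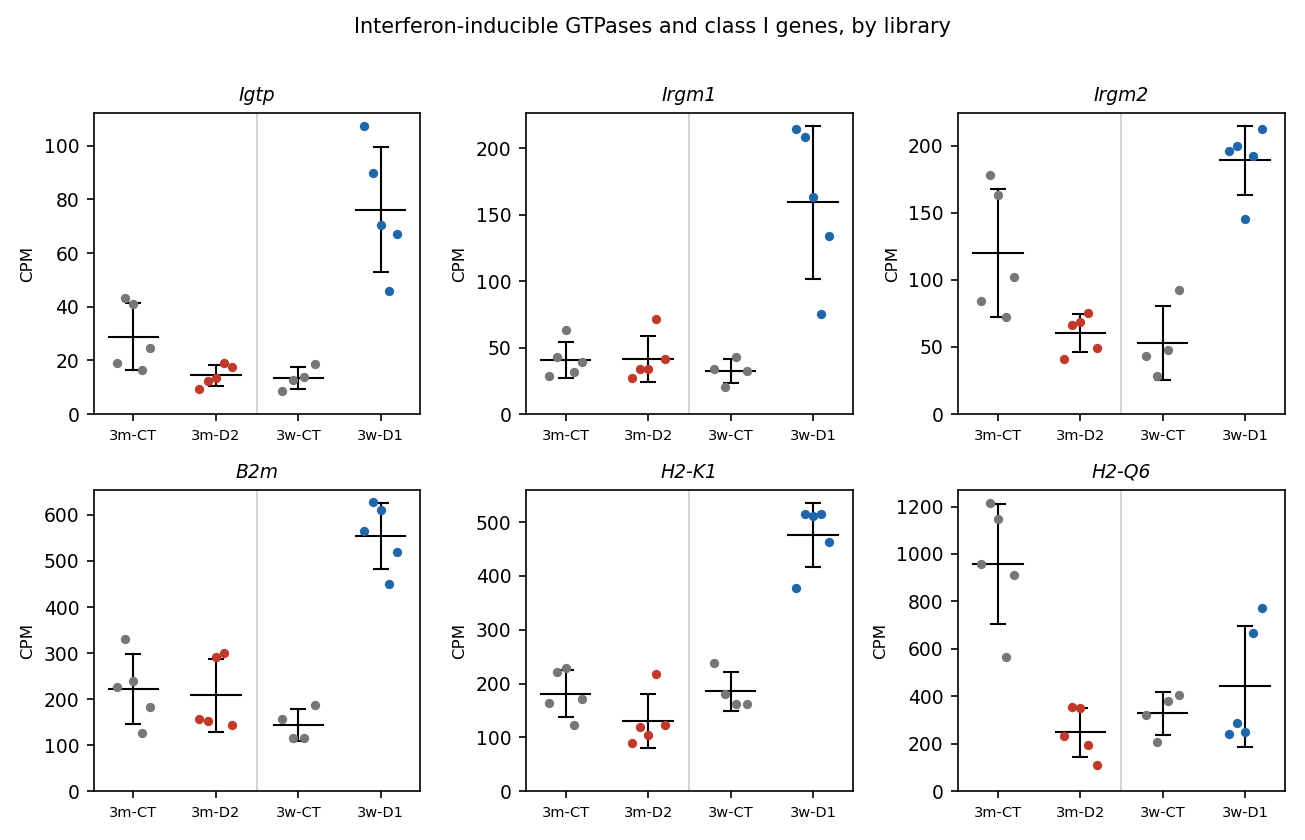
CPM of 3 interferon-inducible GTPases and 3 class I antigen presentation genes (vertical axes, from 0) in each library of the 4 groups, with the group mean as a long bar and whiskers of 1 SD. The 3w-D1 points stand above all 3w-CT points in every panel except H2-Q6, where instead all 3m-D2 points lie below the 3m-CT points.

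Pck1 and G6pc fell in the type 1 model and were not called in the type 2 model. Pck1 (chr2:173153048-173159273), phosphoenolpyruvate carboxykinase, had 2577, 4662, 2733 and 2037 CPM in 3w-CT and 881, 568, 570.5, 653 and 1070 CPM in 3w-D1. Type 2 model libraries held 759, 885, 1096, 1776 and 1610 CPM in 3m-CT and 1226, 1354, 1789, 637 and 2221 CPM in 3m-D2. All STZ libraries lay below their controls, and the db/db libraries overlapped theirs. The type 1 effect was log2 -2.004, SE 0.325, adjusted p = 0.000548, and the difference log2 2.24, SE 0.443, adjusted p = 0.0152. That type 1 effect was not called without 3w-D1 libraries 1, 2 and 3 (adjusted p = 0.0515). G6pc (chr11:101367561-101377903), glucose-6-phosphatase, had 474, 713, 295 and 131 CPM in 3w-CT and 80.1, 52.3, 50.8, 30.2 and 50.5 CPM in 3w-D1. Its levels were 90.2, 103, 119, 157 and 128 CPM in 3m-CT and 143, 124, 165, 51.4 and 180 CPM in 3m-D2. It too separated in type 1 alone (log2 -2.93, SE 0.3904, adjusted p = 9.58e-05), with a difference of log2 3.08, SE 0.521, adjusted p = 0.00568.

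The promoter window of Pck1 (chr2:173152823-173153122, plus strand) is shown because it holds the letters of the cyclic AMP response element, a site through which cyclic AMP signals act on this gene. Its letters TTACGTCA, in capitals, were searched on both strands and occurred in 0.499% of all windows.
Pck1: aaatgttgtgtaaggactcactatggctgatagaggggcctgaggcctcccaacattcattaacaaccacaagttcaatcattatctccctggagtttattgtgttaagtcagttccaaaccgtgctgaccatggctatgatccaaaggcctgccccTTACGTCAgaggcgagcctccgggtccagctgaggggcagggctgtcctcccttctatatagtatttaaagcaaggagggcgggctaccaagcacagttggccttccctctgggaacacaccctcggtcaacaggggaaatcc

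Both genes started lower in 3m-CT than in 3w-CT (Pck1 -1.29, adjusted p = 0.0253; G6pc -1.76, adjusted p = 0.0118). Of the 19 tested genes of gluconeogenesis and glucose handling, 2 were called higher (these; background 0.482%) and 1 lower (background 0.573%), the glycogen phosphorylase gene Pygl. The list medians were 0.00632 in type 1 and 0.0522 in type 2. Both genes were lower in TRAP than in whole kidney, at 0.324 and 0.394 times. Summed CPM of 24 proximal tubule markers, Pck1 among them, was 13860 to 25170 in 3w-CT and 7514 to 13020 in 3w-D1. It was 10400 to 16470 in 3m-CT and 5096 to 11890 in 3m-D2. Of these markers 11 were called lower in type 1 and 6 in type 2 (background 3.82% and 1.68%). Pck1 alone was called for the difference. The part of tubule RNA in the fall was not tested.

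Other genes lower in TRAP than in kidney fell in the same way. Col27a1 (chr4:63214004-63334991), a fibrillar collagen chain, had 46.8, 143, 78.4 and 48.02 CPM in 3w-CT and 9.52, 9.51, 10.3, 7.29 and 12.6 CPM in 3w-D1. The 3m-CT libraries had 29.9, 26, 39.4, 54.8 and 37.6 CPM and the 3m-D2 libraries 65.6, 73.3, 42.2, 36.1 and 84.04 CPM. No STZ library came near its controls, and the type 2 groups overlapped. Its difference, log2 3.69, SE 0.424, adjusted p = 0.000273, had the lowest p of all tested genes. Its 3m-CT controls started lower than 3w-CT (-1.08, adjusted p = 0.0443). Inmt, an indolethylamine methyltransferase, fell in type 1 (log2 -4.12, SE 0.448, adjusted p = 1.33e-05; type 2 log2 -1.04, SE 0.388, adjusted p = 0.202) with a difference of log2 3.08, SE 0.571, adjusted p = 0.0119. Fcamr, an Fc receptor for IgA and IgM, fell too (log2 -4.78, SE 0.622, adjusted p = 7.78e-05), with a difference of log2 4.61, SE 0.783, adjusted p = 0.00568. Fcamr overlaps the antisense gene Gm15848, and without strand their reads cannot be told apart. Igfbp4, an insulin-like growth factor binding protein named after its values were seen, had 539.7, 625, 456 and 397 CPM in 3w-CT and 165, 127, 148, 153 and 166 CPM in 3w-D1. It fell in type 1 (log2 -1.73, SE 0.22, adjusted p = 4.81e-05) and not in type 2 (log2 -0.11, SE 0.206, adjusted p = 0.912).

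Cyp27b1 (chr10:127048250-127053006), which encodes the 1-alpha-hydroxylase that makes active vitamin D, moved in opposite directions in the 2 models. It had 23.5, 46.2, 22.8 and 14.5 CPM in 3w-CT and 10.1, 3.62, 6.65, 1.75 and 2.62 CPM in 3w-D1. Its level was 4.83, 8.41, 2.04, 8.17 and 9.16 CPM in 3m-CT and 27.03, 28.6, 21.9, 36.1 and 33.04 CPM in 3m-D2. Neither diabetic group overlapped its controls: STZ libraries were all lower and db/db libraries all higher. It fell in type 1 (log2 -2.399, SE 0.441, adjusted p = 0.00164), rose in type 2 (log2 2.17, SE 0.418, adjusted p = 0.00431) and differed by log2 4.57, SE 0.608, adjusted p = 0.000812. The controls differed as well (-2.03, adjusted p = 0.0105). Cyp24a1, the enzyme that degrades active vitamin D and a gene chosen after its values were seen, had 21.1, 30.5, 21.8 and 14.3 CPM in 3w-CT and 106, 46.7, 69.1, 94.1 and 159 CPM in 3w-D1. Cyp24a1 rose in type 1 (log2 2.12, SE 0.501, adjusted p = 0.0116), with no call in type 2 (log2 0.41, SE 0.441, adjusted p = 0.806) or for the difference (adjusted p = 0.229). The rise was not called without 3w-D1 libraries 1, 2 and 3 (adjusted p = 0.0517).

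Besides Cyp27b1, 7 genes were called in both models with opposite signs. Epha6, Txlnb, Pamr1 and Pitpnm2 rose in type 2 and fell in type 1, and Irgm2 and Btaf1 were among those that did the reverse. Epha6 (chr16:59653483-60605531), a receptor for ephrin-A ligands, was 23.8 times higher in TRAP than in kidney. It had 19.2, 15.9, 21.7, 13.5 and 11.8 CPM in 3m-CT and 56.5, 41.4, 28.6, 66.98 and 65.3 CPM in 3m-D2, and 10.6, 7.88, 14 and 47 CPM in 3w-CT and 4.62, 5.46, 5.49, 5.47 and 12.1 CPM in 3w-D1. The db/db libraries all lay above their controls, 4 STZ libraries lay below their controls, and library 5 lay within their range. The difference was log2 3.27, SE 0.567, adjusted p = 0.00579. The single effects were log2 1.65, SE 0.387, adjusted p = 0.0185 in type 2 and log2 -1.61, SE 0.415, adjusted p = 0.0174 in type 1. The type 1 call was lost without 3w-CT library 4 (adjusted p = 0.156) or 3w-D1 library 1 (0.0501), and the type 2 call without 3m-CT library 2, 4 or 5 (0.0505 to 0.0602). Without 3w-D1 libraries 1, 2 and 3 the type 1 effect was not called for Epha6 (adjusted p = 0.313) or for Txlnb (0.325). Txlnb, a taxilin, had a difference of log2 2.74, SE 0.522, adjusted p = 0.0119, and each of its single effects was lost in 6 of the 19 fits: type 2 without 3m-CT library 2, 3, 4 or 5 or 3m-D2 library 1 or 2 (up to 0.0744), and type 1 without 3w-CT library 1 or 4 or 3w-D1 library 1, 2, 3 or 4 (up to 0.177).

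Genes enriched in the podocyte TRAP fraction were among those that differed. Of the 173, 14 were at least 4 times higher in 3m-CT TRAP than in the kidney library, as were 633 of all tested genes (3.86%), and 83 were lower in TRAP than in kidney, as were 50.1% of all tested. Prune2 (chr19:16956118-17223932), a protein with a BNIP2 and CRAL-TRIO region, had 12.3, 9.12, 18.6, 7.88 and 4.97 CPM in 3m-CT and 119, 115, 79.05, 120.5 and 104 CPM in 3m-D2. In the type 1 model it had 8.96, 2.01, 16.3 and 55.5 CPM in 3w-CT and 6.701, 6.62, 7.62, 7.75 and 11.1 CPM in 3w-D1. The db/db libraries lay above every other library, and the STZ libraries lay within their control range. Prune2 rose in type 2 (log2 3.35, SE 0.546, adjusted p = 0.00124), was not called in type 1 (log2 -1.400, SE 0.547, adjusted p = 0.117) and differed by log2 4.75, SE 0.765, adjusted p = 0.00516. Endou, an RNA-cleaving enzyme, rose in type 2 (log2 2.19, SE 0.319, adjusted p = 0.000284) and differed by log2 2.86, SE 0.452, adjusted p = 0.00489. Kcna6, a voltage-gated potassium channel, fell in type 1 (log2 -2.08, SE 0.452, adjusted p = 0.00584) and differed by log2 3.19, SE 0.617, adjusted p = 0.0133. Its type 1 fall was not called without 3w-D1 libraries 1, 2 and 3 (adjusted p = 0.192).

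Pmepa1, an inhibitor of TGF-beta signalling chosen after its values were seen, had 249, 243, 265, 247 and 258 CPM in 3m-CT and 334, 344, 314, 395 and 357 CPM in 3m-D2. In the type 1 model it had 190, 147, 205 and 278 CPM in 3w-CT and 86.8, 108, 97.1, 144 and 135 CPM in 3w-D1. Diabetic libraries of both models lay outside their controls, on opposite sides. The type 1 fall was called (log2 -0.85, SE 0.163, adjusted p = 0.00228), the type 2 effect was not (log2 0.47, SE 0.154, adjusted p = 0.12), and the difference was log2 1.31, SE 0.224, adjusted p = 0.00528. Without 3w-D1 libraries 1, 2 and 3 the type 1 fall was not called (adjusted p = 0.141). Svep1, an extracellular adhesion protein also chosen after its values were seen, fell in type 2 (log2 -0.93, SE 0.191, adjusted p = 0.00689), with a difference of log2 -1.35, SE 0.279, adjusted p = 0.0188.

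Genes of podocyte identity, 38 in all, had median changes of -0.358 in type 1 and -0.347 in type 2. For the difference 0 of them were called in edgeR, with 5 at an unadjusted p under 0.05 (background 13.8%). DESeq2 called 2 and limma 0, against 588 of 18004 and 102 of 15302 over all genes. At a background of 1.06% a count of 0 says little of 38 genes. Nphs1 had 2047, 1790, 1609, 1165 and 1424 CPM in 3m-CT and 1006, 1100, 1103, 479 and 613 CPM in 3m-D2, and 1667, 925, 1265 and 1380 CPM in 3w-CT and 552, 538, 568, 1214 and 1018 CPM in 3w-D1. Its levels in db/db libraries lay below all of their controls, and in the type 1 model the groups overlapped through 3w-D1 libraries 4 and 5. Neither effect was called (log2 -0.902, SE 0.266, adjusted p = 0.0706 in type 2 and log2 -0.75, SE 0.279, adjusted p = 0.0946 in type 1), and the difference was log2 -0.15, SE 0.385, adjusted p = 0.92. Wt1, a transcription factor of podocytes, and Podxl, their surface sialoprotein, had differences of -0.17 and -0.14, neither of them called.

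Slc6a6 and Thbd rose in the type 2 model and were not called in the type 1 model. Slc6a6 (chr6:91684067-91759063), the taurine transporter, had 549, 516, 634, 702 and 799 CPM in 3m-CT and 1804, 1750, 1202, 2327 and 2684 CPM in 3m-D2. In the type 1 model it had 1217, 1063, 956 and 952 CPM in 3w-CT and 1088, 1182, 922, 1157 and 815 CPM in 3w-D1. Every db/db library was above its controls, and the STZ libraries overlapped theirs. The type 2 effect was log2 1.61, SE 0.192, adjusted p = 2.69e-05 and the difference log2 1.63, SE 0.274, adjusted p = 0.00516. Thbd, thrombomodulin, an anticoagulant receptor for thrombin, had 14.4, 10.7, 13.1, 11.5 and 8.22 CPM in 3m-CT and 34.1, 48.5, 34.1, 48.8 and 48.98 CPM in 3m-D2, and 17.99, 26.5, 23.4 and 23.7 CPM in 3w-CT and 27.8, 23.2, 28.2, 11.6 and 18.5 CPM in 3w-D1. Thbd rose in type 2 (log2 1.89, SE 0.2199, adjusted p = 1.98e-05) and differed by log2 1.95, SE 0.312, adjusted p = 0.00489. For both genes the 3m-CT controls started below 3w-CT (Slc6a6 -0.71, adjusted p = 0.0448; Thbd -0.98, adjusted p = 0.0169). Both were named after their values were seen.

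Klf4, a transcription factor, rose in type 2 (log2 2.09, SE 0.322, adjusted p = 0.000475), with a difference of log2 2.14, SE 0.456, adjusted p = 0.0228 that was lost without 3w-CT library 4 or 3w-D1 library 2 or 3 (adjusted p 0.05 to 0.0516). Tagln, the smooth muscle protein transgelin, had 29.7, 31.5, 34.9, 26.6 and 32.9 CPM in 3m-CT and 126, 93.7, 63.8, 413 and 202 CPM in 3m-D2. Transgelin RNA rose in type 2 (log2 2.53, SE 0.377, adjusted p = 0.000445), with a difference of log2 2.44, SE 0.525, adjusted p = 0.0268 that was lost without 3m-CT library 2 or 4 or 3w-CT library 4 (0.0519 to 0.055). Both were chosen after their values were seen. Summed CPM of 14 mesangial and smooth muscle markers, Tagln among them, was 199 to 263 in 3m-CT and 278 to 956 in 3m-D2, and 254 to 519 in 3w-CT and 345 to 766 in 3w-D1. Their part in the rise of Tagln was not tested.

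**Figure D3:**
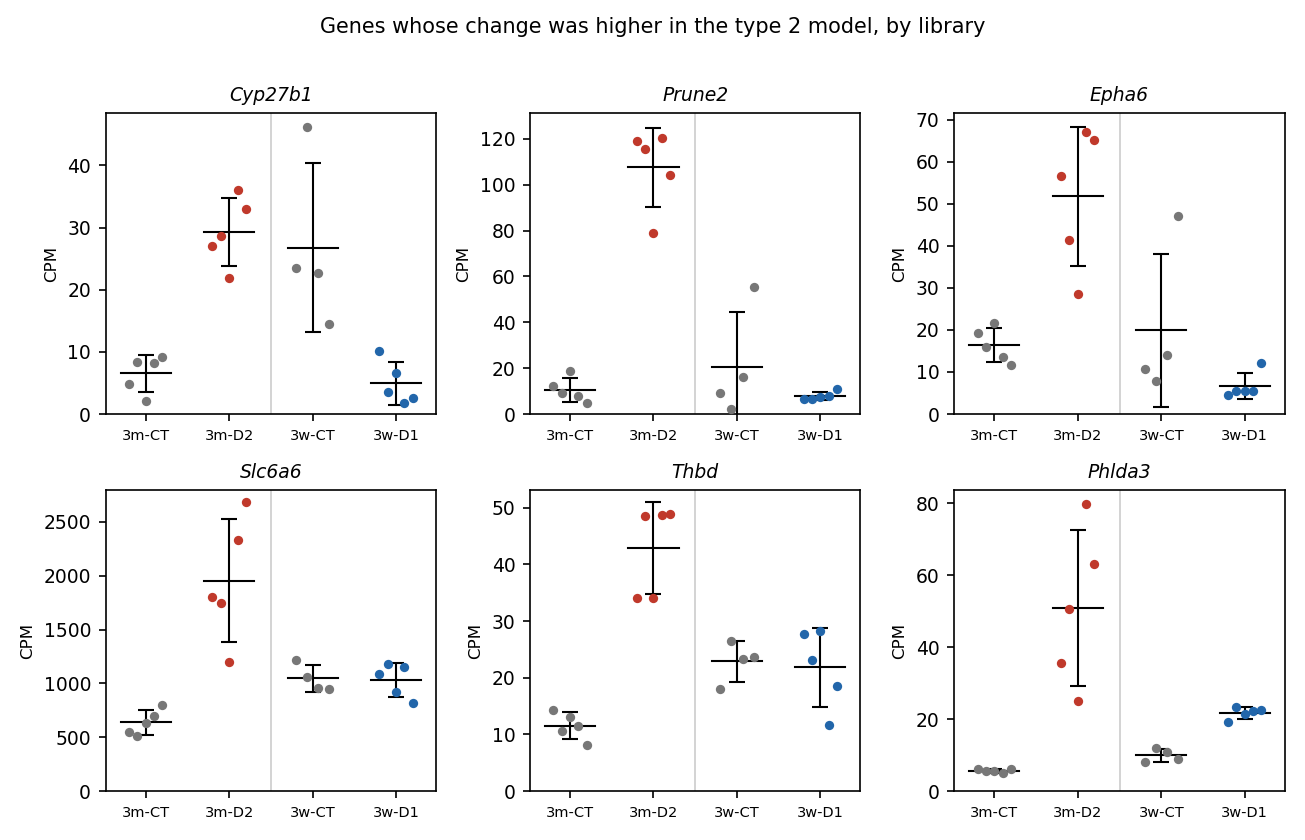
CPM (vertical axes, from 0) of 6 genes with a higher difference, in each library of the 4 groups, with group means as long bars and whiskers of 1 SD. All 5 3m-D2 points lie above all 5 3m-CT points in each panel, while 3w-D1 points lie below 3w-CT for Cyp27b1, overlap it for Prune2, Epha6, Slc6a6 and Thbd, and lie above it for Phlda3.

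Among p53 targets, Phlda3 rose more in type 2, and Eda2r and Ccng1 rose more in type 1. Phlda3 (chr1:135766119-135769136), a p53 target that restrains Akt, had 6.28, 5.58, 5.66, 4.93 and 6.203 CPM in 3m-CT and 35.6, 50.5, 25, 79.8 and 63.1 CPM in 3m-D2, and 7.97, 12.04, 10.9 and 8.92 CPM in 3w-CT and 19.1, 23.5, 21.4, 22.2 and 22.6 CPM in 3w-D1. It rose in both models (log2 3.15, SE 0.243, adjusted p = 1.88e-07 in type 2 and log2 1.13, SE 0.247, adjusted p = 0.00607 in type 1), and more in type 2 (log2 2.02, SE 0.331, adjusted p = 0.00516). The type 1 rise was not called without 3w-D1 libraries 1, 2 and 3 (adjusted p = 0.0764). Eda2r (chrX:97333840-97377216), the receptor for ectodysplasin A2 and also a p53 target, went the other way. It had 17.2, 16.8, 16.5, 22.4 and 15.2 CPM in 3w-D1, and 3 of the 4 3w-CT libraries had no count. Pooled, 1496 counts in 3w-D1 against 1 in 3w-CT gave a CPM ratio of 1020 (exact 95% interval 183 to 40400, counting error only). Type 2 model libraries held 0.0743, 0.774, 0.199, 0.164 and 0.739 CPM in 3m-CT and 2.25, 0.571, 0.578, 6.002 and 1.97 CPM in 3m-D2. The difference had an adjusted p of 0.00959, and its size depends on the near-absent control counts. The type 2 rise (adjusted p = 0.0245) was lost without 3m-CT library 1, 3 or 4 or 3m-D2 library 4 (0.0679 to 0.142).

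Ccng1, cyclin G1, another p53 target, had 269.6, 154, 208 and 259.9 CPM in 3w-CT and 508, 476, 489, 450.2 and 584 CPM in 3w-D1. It rose in type 1 (log2 1.17, SE 0.153, adjusted p = 6.88e-05) and differed by log2 -0.99, SE 0.206, adjusted p = 0.0206, with 246, 230, 228, 211 and 210 CPM in 3m-CT and 304, 248, 275, 232 and 219 CPM in 3m-D2. Of 27 tested genes of p53, apoptosis and senescence, 1 was called higher and 2 lower for the difference in edgeR (background 0.482% and 0.573%). DESeq2 called 6 of them and limma 3, against 588 of 18004 and 102 of 15302 over all genes. Type 1 called 10 higher (background 5.68%) and type 2 called 3 higher (background 1.49%).

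Gsta2 and Cbr1, enzymes of detoxification, rose more in type 1. Gsta2 (chr9:78331018-78355788), an alpha-class glutathione transferase under NRF2, had 4.099, 0.0743, 5.93 and 4.22 CPM in 3w-CT and 231, 226, 255, 80.4 and 87.4 CPM in 3w-D1. The 3m-CT libraries had 11, 14.3, 13.3, 9.89 and 10.4 CPM and the 3m-D2 libraries 61.98, 57.8, 87.6, 51.4 and 61.5 CPM. Neither diabetic group overlapped its controls, and both effects were called (log2 5.61, SE 0.562, adjusted p = 7.75e-06 in type 1 and log2 2.44, SE 0.432, adjusted p = 0.00245 in type 2). The difference was log2 -3.17, SE 0.642, adjusted p = 0.0201. Gsta2 and Gsta1 are close copies that may share reads. Cbr1, a carbonyl reductase named after its values were seen, had 26.4, 17.6, 22.8 and 16.1 CPM in 3w-CT and 129, 148, 153, 65.3 and 58.1 CPM in 3w-D1, and its difference was log2 -1.96, SE 0.331, adjusted p = 0.00516. Its levels in the type 2 model were 25.5, 20.8, 21.1, 23.03 and 27.4 CPM in 3m-CT and 33.2, 32.5, 37.9, 27.2 and 30.8 CPM in 3m-D2. Of 30 metallothionein and NRF2 genes 2 were called lower for the difference, Gsta2 and the thioredoxin reductase gene Txnrd1, and 0 higher (background 0.573% lower). DESeq2 called 8 of them and limma 1, against 588 of 18004 and 102 of 15302 over all genes. With 1 library left out the edgeR count ran from 1 (3m-CT library 2, 3, 4 or 5, 3m-D2 library 1, 2 or 3, 3w-CT library 1 or 3w-D1 library 1, 2 or 3) to 6 (3w-D1 library 5, with 4 without library 4). Itgb6, the beta subunit of an integrin that activates TGF-beta, was chosen after its values were seen. It had 50.5, 84.8, 56.98 and 42.9 CPM in 3w-CT and 188, 192, 206, 152 and 172 CPM in 3w-D1, rose in type 1 (log2 1.63, SE 0.241, adjusted p = 0.00021) and differed by log2 -1.93, SE 0.322, adjusted p = 0.00516.

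Of the circadian clock genes 4 of 20 were called higher for the difference (background 0.482%) and 0 lower, with medians of -0.595 in type 1 and 0.22 in type 2. They included Per2, Cry1 and Hlf, and 5 of the 20 were called lower in type 1. The 4 calls fell to 2 without 3m-CT library 2 or 4, 3m-D2 library 1, 2 or 3, 3w-CT library 1 or 4 or 3w-D1 library 3, and to 1 without 3w-D1 libraries 1, 2 and 3. DESeq2 called 5 of the 20 and limma 1, against 588 of 18004 and 102 of 15302 over all genes. Per2, a repressor of the clock, had 120.5, 141, 109 and 134 CPM in 3w-CT and 70.8, 80.5, 63.7, 51.2 and 42.1 CPM in 3w-D1. Its level was 23.7, 25.5, 53.3, 55.7 and 75.1 CPM in 3m-CT and 86.2, 79.3, 114, 54.98 and 83.1 CPM in 3m-D2. STZ libraries lay below their controls, 4 of 5 db/db libraries lay above theirs, and the difference was log2 1.87, SE 0.376, adjusted p = 0.0172. Cry1, a second repressor, had a difference of log2 1.97, SE 0.445, adjusted p = 0.0316 that was lost in 10 of the 19 fits with 1 library left out (3m-CT library 2, 3, 4 or 5, 3m-D2 library 1, 2 or 3, 3w-CT library 1 or 4 or 3w-D1 library 3; adjusted p 0.0529 to 0.0808).

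These genes also differed between libraries of 1 group. Arntl, which drives the clock as BMAL1, had 31.3, 23.8, 1.09, 6.45 and 3.99 CPM in 3m-CT and 53.4, 48.2, 3.27 and 6.46 CPM in 3w-CT. Dbp, an output gene of the clock, had 28.98, 35.6, 289.6, 219 and 271 CPM in 3m-CT and 2.58, 2.45, 175 and 152 CPM in 3w-CT. Control libraries 1 and 2 of each model stood apart from the others, high in Arntl and low in Dbp. The diabetic groups had 165, 138, 222, 149 and 236 CPM of Dbp in 3m-D2 and 37.1, 37.3, 32.3, 32.4 and 34.03 CPM in 3w-D1. Both genes were chosen after their values were seen, and neither was called for the difference (Arntl log2 -0.61, SE 1.23, adjusted p = 0.89; Dbp log2 1.37, SE 1.27, adjusted p = 0.705). The controls of Per2 and Cry1 differed too (3m-CT minus 3w-CT -1.44, adjusted p = 0.00468, and -1.79, adjusted p = 0.0031). The labels give no hour of collection, and its part in these differences was not tested.

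**Figure D4:**
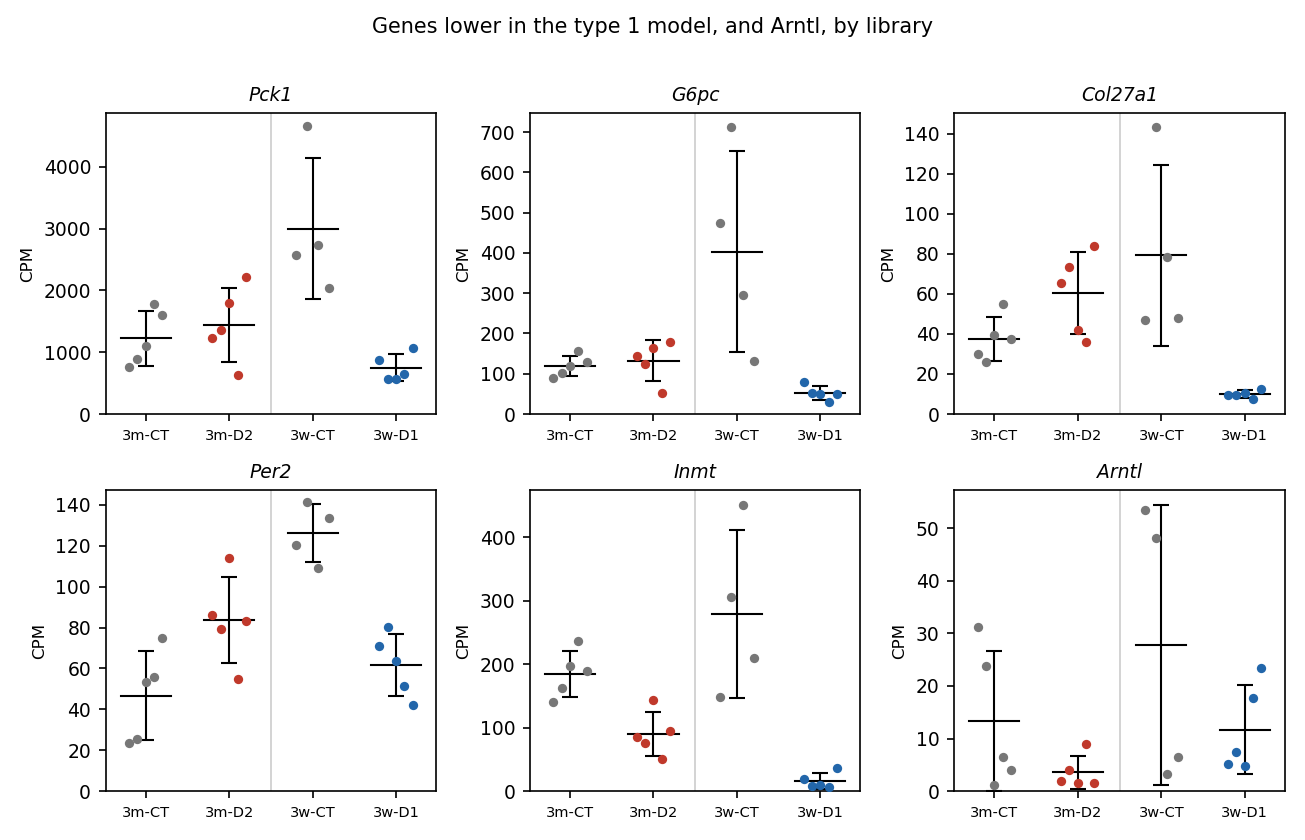
CPM (vertical axes, from 0) of Pck1, G6pc, Col27a1, Per2, Inmt and Arntl in each library of the 4 groups, with group means as long bars and whiskers of 1 SD. In 3w-D1 the points lie below all 3w-CT points for Pck1, G6pc, Col27a1, Per2 and Inmt, and Arntl splits both control groups into 2 high libraries and the rest.

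Slc22a7 and Slc22a19, organic anion transporters of the tubule, fell more in the type 2 model. Slc22a7 (chr17:46432185-46438477) had 32.2, 28.9, 58.9, 55.1 and 59.4 CPM in 3m-CT and 1.44, 0.207, 1.59, 3.42 and 0.8096 CPM in 3m-D2, and 44.6, 67.8, 70.2 and 39.5 CPM in 3w-CT and 14.6, 13.8, 14.1, 7.97 and 5.54 CPM in 3w-D1. It fell in both (log2 -4.92, SE 0.457, adjusted p = 1.56e-06 in type 2 and log2 -2.295, SE 0.411, adjusted p = 0.00137 in type 1). The difference of log2 -2.62, SE 0.584, adjusted p = 0.0309 was lost in 10 of the 19 fits with 1 library left out (3m-CT library 3, 4 or 5, 3m-D2 library 1 or 5, 3w-CT library 1 or 4 or 3w-D1 library 1, 2 or 3; adjusted p 0.0525 to 0.0717). Slc22a19 had 16.3, 18.8, 23.9, 21.9 and 22.7 CPM in 3m-CT and 4.18, 1.09, 4.84, 2.29 and 1.77 CPM in 3m-D2, and 26.9, 30.2, 34.01 and 19.4 CPM in 3w-CT and 16.9, 17.97, 13.8, 20.9 and 14.8 CPM in 3w-D1. It fell in type 2 (log2 -2.85, SE 0.299, adjusted p = 6.02e-06) and differed by log2 -2.15, SE 0.413, adjusted p = 0.0129.

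Some genes were called in both models. Both effects were called for 219 genes, 1.34% of those tested, 14.1% of the type 1 calls and 42% of the type 2 calls: 75 rose in both, 136 fell in both and 8 had opposite signs. Over all 16397 tested genes, which are not independent of each other, the 2 effects correlated with r = 0.355 and rho = 0.302. Tubular injury genes had 13 of 26 called higher in type 2 (background 1.49%) and 12 in type 1 (background 5.68%). For the difference 0 of them were called in edgeR (background 1.06%, so a count of 0 says little of 26 genes). An unadjusted p under 0.05 was found for 9 of them (background 13.8%). DESeq2 called 2 and limma 0, against 588 of 18004 and 102 of 15302 over all genes. Havcr1, the kidney injury molecule KIM-1, had 1.45, 1.75, 1.39, 2.34 and 2.46 CPM in 3m-CT and 10.1, 6.59, 1.85, 79.1 and 35.4 CPM in 3m-D2, and 1.97, 1.34, 7.303 and 5.77 CPM in 3w-CT and 79.3, 70.8, 93.1, 48.4 and 30.8 CPM in 3w-D1. It rose in both (log2 3.83, SE 0.7699, adjusted p = 0.00751 in type 2 and log2 3.97, SE 0.841, adjusted p = 0.00613 in type 1), with a difference of log2 -0.14, SE 1.05, adjusted p = 0.976. The type 2 rise was not called without 3m-D2 libraries 4 and 5 (log2 1.68, adjusted p = 0.115), and the type 1 rise was not called without 3w-D1 libraries 1, 2 and 3 (log2 3.26, adjusted p = 0.118). Krt20, a keratin of injured tubules, rose in both from controls near 0 (log2 4.200, SE 0.849, adjusted p = 0.00612 in type 2 and log2 4.73, SE 0.906, adjusted p = 0.00232 in type 1), and both calls were lost with the same libraries left out (log2 2.48, adjusted p = 0.133 in type 2 and log2 4.32, adjusted p = 0.0571 in type 1). C3, the central complement protein, named after its values were seen, rose in both (log2 3.62, SE 0.402, adjusted p = 1.8e-05 in type 2 and log2 2.52, SE 0.418, adjusted p = 0.000783 in type 1), the type 1 call being lost without 3w-D1 libraries 1, 2 and 3 (adjusted p = 0.0534).

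Most androgen-responsive genes fell in both models. Of 26 androgen-responsive and sex-biased kidney genes 18 were called lower in type 2 (background 1.68%) and 17 in type 1 (background 3.82%), with medians of -1.46 and -1.51. Slco1a1, an organic anion transporter, had 61.6, 56.3, 79.7, 109.7 and 60.7 CPM in 3m-CT and 0.312, 0.104, 0.506, 4.91 and 0.506 CPM in 3m-D2, and 84.8, 78.2, 136 and 68.9 CPM in 3w-CT and 0.196, 0.245, 0.485, 0 and 4.23 CPM in 3w-D1. It fell in both (log2 -5.75, SE 0.845, adjusted p = 0.000642 in type 2 and log2 -6.79, SE 0.941, adjusted p = 0.000252 in type 1), with a difference of log2 1.04, SE 1.17, adjusted p = 0.774. The type 1 fall of Slco1a1 was not called without 3w-D1 libraries 1, 2 and 3 (log2 -5.55, adjusted p = 0.0564). Kap, the kidney androgen-regulated protein, named after its values were seen, fell in both (log2 -3.99, SE 0.785, adjusted p = 0.0037 in type 1 and log2 -2.92, SE 0.732, adjusted p = 0.0337 in type 2). The type 2 fall was lost in 9 of the 19 fits with 1 library left out (any 3m-CT library or 3m-D2 library 1, 2, 4 or 5; adjusted p 0.058 to 0.102). Ugt1a2, a glucuronosyltransferase, rose in both from controls near 0, to 11.1, 37.7, 24.4, 15.2 and 7.49 CPM in 3m-D2 (log2 6.37, SE 0.7998, adjusted p = 0.000106) and 247, 162, 222, 105 and 16.4 CPM in 3w-D1 (log2 7.45, SE 0.848, adjusted p = 3.17e-05). It shares exons with the other Ugt1a genes, so its reads are uncertain.

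**Figure D5:**
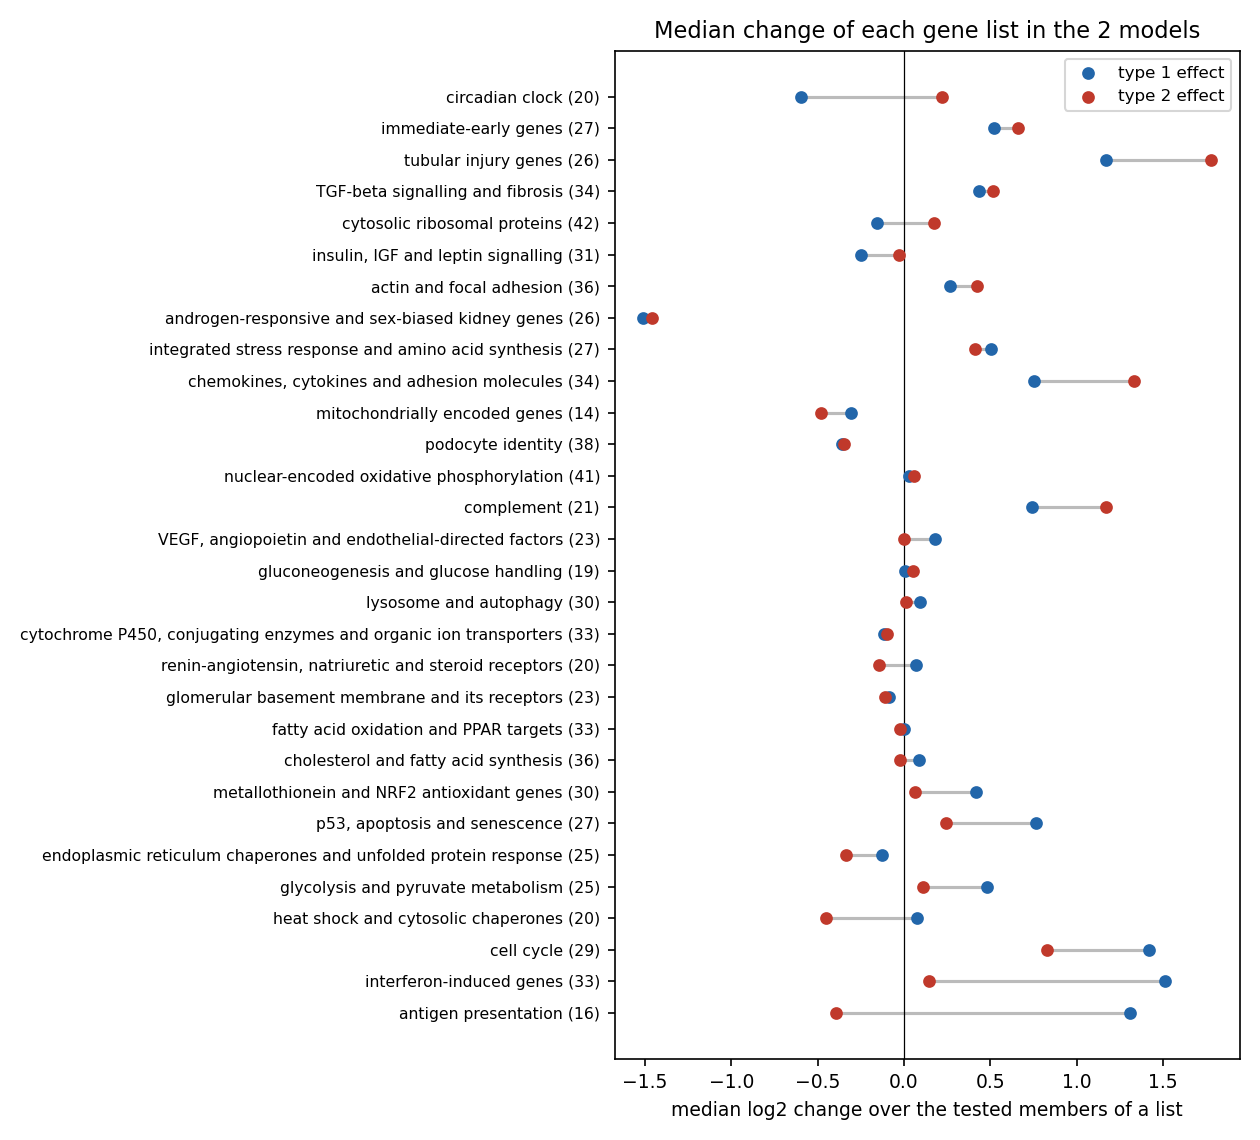
Median log2 change of the tested members of each of 30 gene lists (number of tested members in brackets) in the type 1 model (blue) and the type 2 model (red), ordered by the median difference of effects. Antigen presentation and interferon-induced genes stand at the bottom, high in type 1 alone, and circadian genes at the top; podocyte identity and androgen-responsive genes have nearly the same median in both.

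Some calls rest on genes without counts in a control group. In 17 of the 173 called genes all 4 3w-CT libraries had 0 counts, against 1 gene for 3m-CT, 1 for 3w-D1 and 0 for 3m-D2. How many of all tested genes were at 0 in each group is not given here, so whether 17 is unusual cannot be said. Against a floor of 3 counts over the group, Mfrp, a membrane protein related to frizzled receptors, was at least 82.8-fold higher in 3w-D1 than in 3w-CT. Ercc6l, a DNA translocase of dividing cells, was at least 62-fold higher, and Trib3, a pseudokinase of the stress response, at least 38.1-fold higher. Each of these 3 also had counts in all groups other than 3w-CT, and their 3 control differences were called (adjusted p 0.00349 for Mfrp, 0.0216 for Ercc6l and 0.0102 for Trib3). Fewer genes were detected in 3w-CT (15558 to 16362) than in the type 2 model or in 4 of the 5 3w-D1 libraries (18044 to 21050; library 4 had 14320). The part of that lower detection in these calls was not tested. These genes were chosen for display after their values were seen.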

How the data were processed

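Raw read counts per gene were deposited for each library, and the authors' deposited FPKM values served as an alternative only. Tools listed in the submitters' processing notes are featureCounts 1.15.2, cutadapt 1.16, FastQC and STAR, with no settings, and the build listed is mm9. The coordinates in the table match GRCm38 instead (99.981% of 31871 matched genes overlap their GRCm38 place, and 82.15% have the same ends), and GRCm38 is used here. Libraries used the NuGEN Ovation kit with DNase treatment and fragmentation, per the labels' protocols. The members, lists and tests were chosen with earlier results of these data known.

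edgeR 4.0.16 in R 4.3.3 (TMM factors, filterByExpr, robust quasi-likelihood fit, Benjamini-Hochberg adjustment) was fitted to the 4 groups together, with the interaction as a contrast. The single kidney library entered no test and gave only TRAP to kidney ratios (0.5 CPM added). Library deviations are log2(CPM + 0.5) minus the control mean. Named genes were, with a mean CPM of at least 10, the 12 largest called differences in each direction whose deviations did not overlap, up to 4 members of lists with 2 called genes, opposite and shared calls, the largest differences called in type 1 but not type 2, and fixed checks; others are said to be chosen later, and some results are not reported here. Alternatives were RLE and upper-quartile factors, DESeq2 1.42.0, limma 3.58.1 on log2(FPKM + 0.1), 2 filters, all 36 TRAP libraries, a replicate block and libraries left out. On simulated counts for 15966 genes the interaction test recovered 88% of genes changed 4-fold and 95% of those changed 8-fold. It also called 14 unchanged genes. In the simulated counts 0 genes were called for the type 1 effect, against 1557 in the real ones. These rates therefore describe the simulated counts alone, and the power of the test in the real libraries was not measured.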

Additional observations from a re-analysis of the deposited data

Results flagged for a closer look

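The 173 genes called for the difference are themselves an effect that differs between the models. Among the genes described, the log2 difference was positive for Prune2 (4.75), Fcamr (4.61), Cyp27b1 (4.57), Col27a1 (3.69), Epha6 (3.27), Adamtsl5 (3.20), Kcna6 (3.19), Angptl7 (3.16), G6pc (3.08), Inmt (3.08), Endou (2.86), Txlnb (2.74), Tagln (2.44), Pck1 (2.24), Klf4 (2.14), Phlda3 (2.02), Cry1 (1.97), Thbd (1.95), Per2 (1.87), Slc6a6 (1.63), Igfbp4 (1.62) and Pmepa1 (1.31). It was negative for Eda2r (-7.04), Tgtp2 (-4.90), Igtp (-3.49), Gsta2 (-3.17), Irgm2 (-2.83), Slc22a7 (-2.62), H2-Q6 (-2.38), Irgm1 (-2.28), Tap1 (-2.22), Slc22a19 (-2.15), H2-Q4 (-2.05), B2m (-2.03), Gbp7 (-1.98), Cbr1 (-1.96), Itgb6 (-1.93), H2-K1 (-1.83), H2-D1 (-1.61), Svep1 (-1.35) and Ccng1 (-0.986).

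In 18 of 212 group and gene pairs, over 53 genes, 1 library stood apart from the rest of its group. The limit used would mark about 1 in 20 if values were independent and normally distributed. CPM values of genes from the same libraries need be neither, so the 2 rates cannot be compared. Library 5 of 3w-D1 did so 6 times: it was highest for Epha6 (12.1 CPM), Prune2 (11.1 CPM), Kap (485 CPM) and Slco1a1 (4.23 CPM) and lowest for Lepr (2.52 CPM) and Tap1 (29.6 CPM). Library 4 of 3w-D1 was highest for Eda2r (22.4 CPM), Endou (48.4 CPM) and Klf4 (36.9 CPM). In 3m-D2, library 4 was highest for H2-K1 (218 CPM) and Slco1a1 (4.91 CPM) and lowest for Adamtsl5 (26.9 CPM), and library 5 was highest for Igfbp4 (771 CPM). In the controls, Epha6 was highest in 3w-CT library 4 (47.0 CPM), Eda2r in 3w-CT library 2 (0.0743 CPM), Tgtp2 in 3m-CT library 3 (17.3 CPM), Kap in 3m-CT library 4 (3770 CPM) and Krt20 in 3m-CT library 5 (0.935 CPM).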

How the results depend on the processing

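The count of genes called for the difference was 588 with DESeq2, 102 with limma on FPKM, 301 without 3m-D2 libraries 4 and 5, 844 without 3w-D1 libraries 4 and 5 and 24 without 3w-D1 libraries 1, 2 and 3 (the last 2 settings chosen after seeing the data), and 91 to 357 with 1 library left out. It was 197 with RLE factors, 190 with upper-quartile factors, 128 with no filter, 208 with a mean CPM of at least 5 and 174 with all 36 TRAP libraries. The called genes were not always the same ones. Of the 173, 124 were called with all 36 TRAP libraries, 124 with the replicate number as a block and 125 with no filter. RLE factors kept 167 and upper-quartile factors 168. Limma kept 92 of the 163 it tested, and the mean CPM filter 145 of 146. For the type 2 effect the counts were 862 (DESeq2), 338 (limma), 265 (without 3m-D2 libraries 4 and 5) and 317 to 619 with 1 library left out, under 347 without 3m-CT library 2 or 4 or 3m-D2 library 4. For the type 1 effect they were 2454 (DESeq2), 2795 (without 3w-D1 libraries 4 and 5), 289 (without libraries 1, 2 and 3) and 958 to 1934, lowest without 3w-D1 library 1, 2 or 3. For the control difference they were 1342 (DESeq2), 1158 (limma), 418 (no filter), 389 (mean CPM of at least 5), 1025 (without 3w-D1 libraries 4 and 5) and 351 to 917. Of the 173 genes, all kept their sign wherever they were tested.

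Differences that were not called changed sign in Dbp (-0.0651, limma), Arntl (0.382, without 3w-D1 libraries 4 and 5), Havcr1 (0.578, without 3w-D1 libraries 1, 2 and 3; -1.14 to 0.159 with 1 library left out), Nphs1 (0.165 without 3m-D2 libraries 4 and 5, 0.335 without 3w-D1 libraries 4 and 5; -0.282 to 0.0678) and Slco1a1 (-0.897 without 3m-D2 libraries 4 and 5, -0.186 without 3w-D1 libraries 1, 2 and 3; -0.769 to 2.75). The causes were not tested. With the replicate number as a block, 241 genes were called for the difference, 446 for type 2 and 1709 for type 1, and the control difference could not be fitted. Deviations of same-numbered libraries correlated at -0.135 to 0.255, and 2 of 9 pairs correlated best with their own number. Correlations over so few pairs cannot decide whether the numbers pair the libraries. Genes without counts in a control group have differences whose size depth limits.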

Other observations

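Further gene groups were measured. Adamtsl5, a secreted protein of the ADAMTS-like family, had 10.03, 5.95, 7.49, 4.06 and 7.33 CPM in 3m-CT and 40.5, 36.9, 39.5, 26.9 and 37.04 CPM in 3m-D2, and 11.01, 5.501, 18.03 and 23.8 CPM in 3w-CT and 6.97, 7.97, 6.55, 10.9 and 9.06 CPM in 3w-D1. It rose in type 2 (log2 2.37, SE 0.301, adjusted p = 4.4e-05) with no call in type 1 (log2 -0.82, SE 0.308, adjusted p = 0.0976), and its difference was log2 3.198, SE 0.427, adjusted p = 0.000812. Angptl7, an angiopoietin-like protein that lies inside Mtor on the opposite strand, had a difference of log2 3.16, SE 0.524, adjusted p = 0.00516, and its 3m-CT controls started below 3w-CT (-1.77, adjusted p = 0.0105). Of 23 VEGF, angiopoietin and related factors, Vegfb (log2 0.79, SE 0.161, adjusted p = 0.0183) and Pdgfa (log2 1.21, SE 0.254, adjusted p = 0.0208) were called higher (background 0.482%).

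Of 29 cell cycle genes 14 were called higher in type 1 (background 5.68%) and 2 in type 2 (background 1.49%), with 0 called for the difference in edgeR (background 1.06%), 9 at an unadjusted p under 0.05, 1 in DESeq2 and 0 in limma. Of 25 glycolysis genes 10 were called higher in type 1 and 0 in type 2, at the same backgrounds, and 1 was called for the difference (2 by DESeq2 and 0 by limma). Of 42 cytosolic ribosomal protein genes 0 were called for the difference in edgeR, 2 in DESeq2 and 0 in limma, and 10 had an unadjusted p under 0.05, with a median difference of 0.336. Over all genes DESeq2 called 588 of 18004 and limma 102 of 15302 for the difference, and 13.8% had an unadjusted p under 0.05 in edgeR.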
